A study of Mus musculus with 9 samples.

Results

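The mechanical junctions of the intercalated disc were followed through 10 genes: the desmosomal cadherins Dsg2 and Dsc2, the desmosomal plaque genes Dsp, Pkp2 and Jup, the classical cadherin Cdh2, the catenins Ctnna1, Ctnna3 and Ctnnb1, and the scaffold gene Tjp1. They were taken by symbol, with every probe set annotated to a single one of them, which gave 28 of 34945 probe sets and 10 of 18193 genes. None of the 28 carried a 2nd gene name. RNA was measured on Affymetrix mouse arrays in 3 groups of 3 arrays from mice aged 2 months on a C57BL/6 background. The groups were right atria of Myh6-cre; COUP-TFIIflox/flox mutants, ventricles of COUP-TFIIflox/flox controls and right atria of COUP-TFIIflox/flox controls. All animals thus carried the floxed alleles of COUP-TFII, the nuclear receptor encoded by Nr2f2, and only the mutants carried Cre. The Myh6 promoter drives Cre in cardiomyocytes, so other cells of the mutant atrium keep the gene. With no Cre-only animals, what Cre does and what the loss of COUP-TFII does cannot be told apart.

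Cardiomyocytes meet end to end at the intercalated disc. There desmosomes tie the desmin filaments of neighbouring cells together, and adherens junctions tie their actin filaments together. In both, cadherins cross the gap between the cells and bind armadillo proteins inside, which hand the load to a linker: desmoplakin in the desmosome, alpha-catenins in the adherens junction. In mammalian heart the 2 kinds of junction are largely mixed into a hybrid structure, the area composita. Human variants in several desmosomal genes are known causes of arrhythmogenic cardiomyopathy.

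Levels are log2 intensities after the RMA processing of the authors, and a difference of 1 on this scale is a 2-fold change. Ratios are given with their SE from a single limma model of all 9 arrays, and a ratio was called at an adjusted p below 0.05 over all 34945 probe sets. The brightest probe set stands for its gene unless another is named. Levels of different genes are not compared, since probe sets differ in how well they bind. The number of arrays, 3 in each group, limits the precision, and whether an array held RNA of 1 animal or of several is not given in the sources used here.

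The brightest Nr2f2 probe set stood at 6.75 ± 0.12 in mutant atria, 5.68 ± 0.32 in ventricles and 7.49 ± 0.19 in control atria (SD, n = 3), a difference of -0.74 ± 0.15 between mutant and control atria (adjusted p = 0.0113, limma). Of its 6 probe sets 4 fell, by between -0.74 and -1.29, and the other two gave -0.48 ± 0.18 (adjusted p = 0.108) and 0.14 ± 0.11 (adjusted p = 0.46). Whether any of them lies in the deleted part is not given in the sources used here. With the mean level of hepatocyte markers as a covariate the brightest Nr2f2 probe set did not pass (-0.30, adjusted p = 0.883). That level was 5.46 to 5.57 in mutant atria, 5.18 to 5.36 in ventricles and 7.60 to 10.14 in control atria. The covariate thus sets control atria apart from all other arrays, and the fit can hardly separate it from a difference to control atria. A call lost or kept in that fit, here and below, does not tell them apart. All 15 cardiomyocyte markers were abundant, with a mean level of 13.99 to 14.08 in mutant atria, 14.02 to 14.08 in ventricles and 13.90 to 13.99 in control atria, and 3 of them rose in mutant atria while none fell. Of 16 mesothelial and epithelial markers, whose cells also build desmosomes and adherens junctions, 15 fell in mutant atria. Their summed intensity was 7734 to 9695 in mutant atria, 2657 to 3323 in ventricles and 17498 to 20859 in control atria. All 12 hepatocyte markers fell as well, with sums of 810 to 928, 483 to 546 and 3805 to 19058 in the same order of groups. Of 10 smooth muscle and pericyte markers 6 rose and 1 fell in mutant atria, with sums of 17113 to 18743 in mutant atria, 25221 to 29734 in ventricles and 10394 to 11499 in control atria. Pkp2, Jup and, by its group means, Dsp show that order of groups below. Of 9 macrophage markers 5 rose in mutant atria, with sums of 17789 to 25020, 8231 to 12521 and 15259 to 15890 in the same order. Of 10 fibroblast markers 2 rose in mutant atria and 8 were lower in ventricles than in control atria, with sums of 59718 to 63267 in mutant atria, 31002 to 34224 in ventricles and 53180 to 57782 in control atria. Over all genes 6.92% were called higher and 8.99% lower in mutant atria than in control atria. For ventricles against control atria these shares were 28.2% and 23.1%. The part of these cell types in the results below was not tested, and in bulk tissue fewer cells of a type and less RNA per cell cannot be told apart. The 3' to 5' log2 difference of the Gapdh control probes, a sign of RNA quality, was 0.214 to 0.304 in mutant atria, 0.153 to 0.227 in ventricles and 0.345 to 0.364 in control atria. For the Actin control probes it was 1.276 to 1.383, 1.263 to 1.367 and 1.389 to 1.486 in the same order. By both controls the control atria stood above all other arrays, and the part of RNA quality in the results was not tested. The mean level of 3 Y-linked genes ran from 3.73 to 8.84 in mutant atria, 3.78 to 3.85 in ventricles and 5.22 to 8.81 in control atria, with all 3 ventricles low.

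Mutant atria were set against control atria to see how junction transcripts of the atrium differ once COUP-TFII is removed from cardiomyocytes. The junction genes split. The classical cadherin Cdh2 and the plaque gene Pkp2 rose, while the desmosomal cadherins Dsg2 and Dsc2 and the scaffold gene Tjp1 fell. The plaque genes Dsp and Jup and the 3 catenins did not pass. By the brightest probe set 5 of 10 genes were called, 2 higher and 3 lower, against 15.9% of all genes (6.92% higher and 8.99% lower). Over all 28 probe sets 13 were called, 6 higher and 7 lower, against 13.9% of all probe sets (5.86% higher and 8.05% lower). The arrays of mutant and control atria did not overlap for 8 of the 10 genes, against 37.8% of all genes, and for 16 of the 28 probe sets, against 34.3% of all. The median absolute log2 difference was 0.27 over the 10 genes and 0.14 over all genes, and none of the 10 differed by 2-fold. The brightest probe sets of the 10 lay at percentiles 69.6 to 99.6 of mean level, while all genes include dim ones. Shares among genes of like level were not computed.

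The count came from 3 arrays in each group and changed with the arrays left out and with the fit. It was 8 of 28 probe sets without mutant replicate 2, without mutant replicate 3, without control atrium replicate 1 or without control atrium replicate 2, and 1 of 28 with the level of the hepatocyte markers as a covariate, where the share called over all probe sets was 0.292% and the median SE was 0.222 against 0.0912. The probe set that passed there was the dimmer of Cdh2 (1.17, adjusted p = 0.0465). For the fits without an array the share called over all probe sets is not given here. Whether the loss of calls in them is particular to these genes cannot be told.

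**Figure D1:**
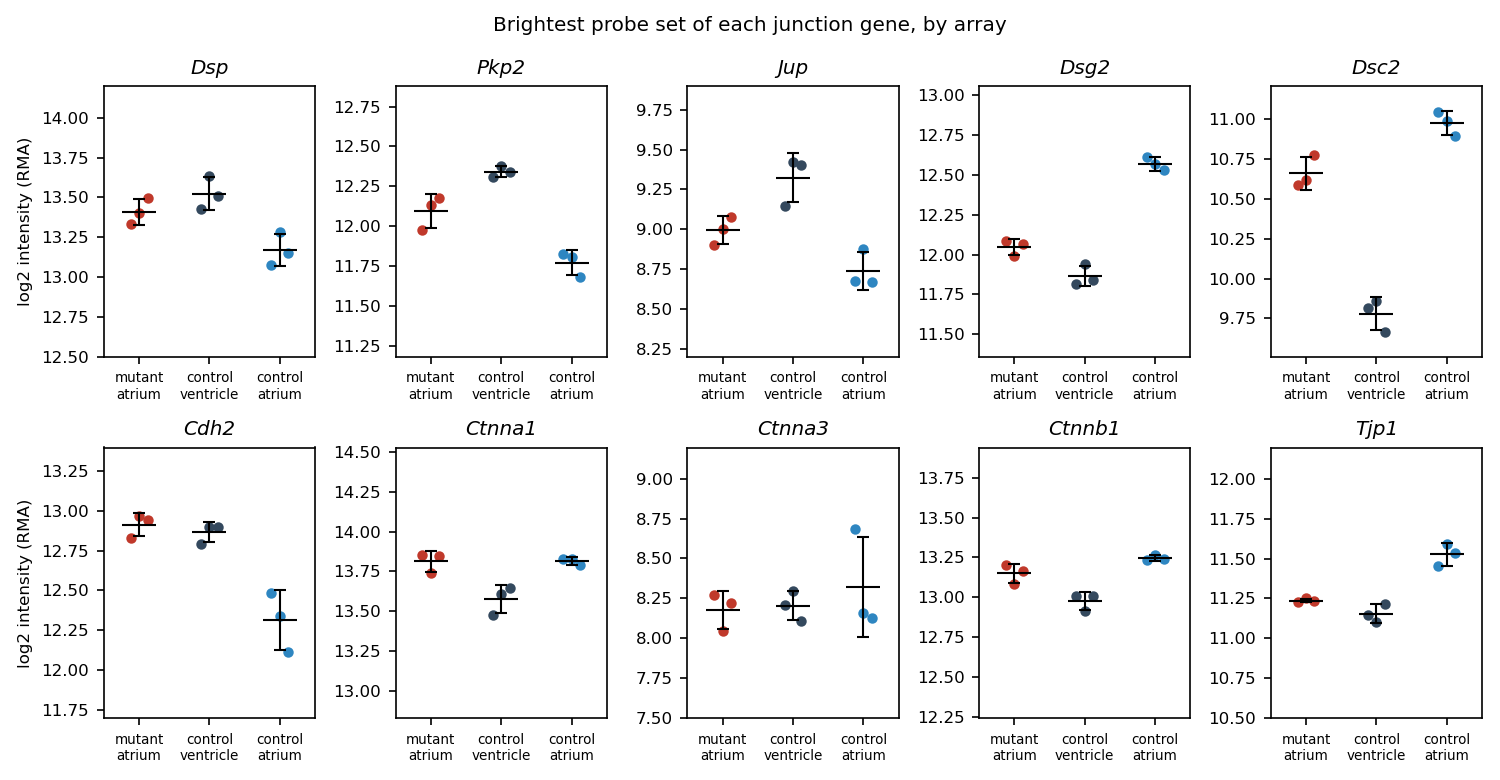
Log2 intensity of the brightest probe set of each of the 10 genes. Each point is an array, in the order mutant atria, control ventricles and control atria, with the mean and SD as bars, and every panel spans the same log2 range. Cdh2 in mutant atria lies with the ventricles, Dsc2 in mutant atria lies between both control tissues, and Ctnna3 overlaps in all groups.

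Among the desmosomal cadherins, Dsg2 encodes desmoglein 2, the only desmoglein that heart muscle makes in quantity. It gave 12.09, 11.99 and 12.07 in mutant atria, 11.82, 11.94 and 11.84 in ventricles, and 12.62, 12.57 and 12.53 in control atria. Each mutant array was below each control atrium and above each ventricle. Dsg2 fell by 0.52 ± 0.07 in mutant atria, a 1.44-fold lower level (adjusted p = 0.000854), and the ventricle was lower than the control atrium by -0.70 ± 0.07 (adjusted p = 2.3e-05). The difference between mutant atria and ventricles was 0.18 ± 0.07 and did not pass (adjusted p = 0.0632, 95% interval 0.04 to 0.33), though it did with an intensity trend (adjusted p = 0.0239), without the dimmest probe sets (0.0399) and with 1 probe set per gene (0.0487).

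Of the 6 Dsg2 probe sets 4 fell in mutant atria, by between -0.39 and -0.58. With the hepatocyte covariate the brightest did not pass (-0.43, adjusted p = 0.436). The remaining 2, with mean levels of 6.81 and 6.73 near the middle of all probe sets, gave -0.23 ± 0.24 and -0.16 ± 0.08 (adjusted p = 0.574 and 0.238). The dimmest probe set that fell lost its call when the 1st (adjusted p = 0.0796) or 3rd (0.0684) mutant array was left out, and likewise the 1st (0.0927) or 2nd (0.0765) control atrium. The next protein-coding gene beside Dsg2 in the RefSeq gene table is Ttr, a liver transcript. Ttr stood at 6.38, 6.43 and 6.41 in mutant atria, 5.58, 5.85 and 5.36 in ventricles, and 11.73, 11.31 and 9.67 in control atria. Its part in the Dsg2 values was not tested.

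Dsc2 encodes desmocollin 2, the partner of desmoglein 2 across the desmosomal gap. It gave 10.59, 10.62 and 10.78 in mutant atria, 9.82, 9.86 and 9.66 in ventricles, and 11.05, 10.99 and 10.90 in control atria. The 3 groups did not overlap. The mutant atria were 1.25-fold below the control atria (-0.32 ± 0.08, adjusted p = 0.0299) and 1.84-fold above the ventricles (0.88 ± 0.08, adjusted p = 4.67e-05). The ventricle was 2.3-fold below the control atrium (-1.20 ± 0.08, adjusted p = 3.11e-06), the largest chamber ratio among the 10 genes. The dimmer Dsc2 probe set gave -0.28 ± 0.07 for mutant against control atria and -1.02 ± 0.07 for ventricle against control atria.

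The chamber ratio of Dsc2 is firmer than the fall in the mutants. Over the 21 alternatives, the hepatocyte fit among them, the chamber call was lost in 0 and the fall in 7. The fall in mutant atria was lost on leaving out the 1st (adjusted p = 0.0851) or 2nd (0.0994) mutant array, or the 1st (0.0991) or 2nd (0.086) control atrium. It did not pass with the replicate number as a block either (adjusted p = 0.0599). With the hepatocyte covariate the fall did not pass (-0.11, adjusted p = 0.932), while the ventricle ratio did (-0.98, adjusted p = 0.0421). That fit can hardly separate the covariate from a difference to control atria, so it does not bear on which ratio is firmer. Mesothelial and epithelial markers, whose sums are given above, were ordered over the groups in the same way as Dsc2 and Dsg2. The mean level of endothelial markers had that order too, with 10.07 to 10.19 in mutant atria, 9.44 to 9.59 in ventricles and 10.24 to 10.27 in control atria. Group means of Tjp1 and Ctnnb1 were ordered likewise, so the order is not particular to these markers or to Dsc2 and Dsg2. The part of these cell types was not tested.

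Both genes belong to the cluster of desmosomal cadherin genes on chromosome 18. Of the other members of the cluster, values of 4 are given here (Dsc1, Dsc3, Dsg1a and Dsg1b), while Dsg1c was not looked up. The group means of the 4 lay between 3.16 and 5.79, below the level of 6.09 under which the dimmest 40% of probe sets fall. Dsc3 had 5.68 ± 0.01 in mutant atria, 5.79 ± 0.04 in ventricles and 5.48 ± 0.16 in control atria.

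In the desmosomal plaque, Pkp2 encodes plakophilin 2, an armadillo protein that gathers the other plaque proteins. It gave 11.98, 12.13 and 12.18 in mutant atria, 12.31, 12.38 and 12.34 in ventricles, and 11.82, 11.81 and 11.68 in control atria. Again the groups did not overlap and the mutants lay in between, here with the ventricle on top. Pkp2 rose by 0.32 ± 0.07 in mutant atria (1.25-fold, adjusted p = 0.0188), the ventricle exceeded the control atrium by 0.57 ± 0.07 (adjusted p = 0.000215), and the mutant atria were below the ventricles by -0.25 ± 0.07 (adjusted p = 0.0342). That call against ventricles was lost in 8 of 21 alternatives, among them leaving out the 1st (adjusted p = 0.112) or 2nd (0.0635) mutant array or any one ventricle (0.0557, 0.0908 and 0.0729). Its next brightest probe set was tighter, with 11.41 ± 0.06 in mutant atria, 11.84 ± 0.06 in ventricles and 11.05 ± 0.02 in control atria, and ratios of 0.37 ± 0.06 (adjusted p = 0.0049), 0.80 ± 0.06 (8.56e-06) and -0.43 ± 0.06 (0.000792). The 3rd probe set rose too (0.31 ± 0.08, adjusted p = 0.0403), and the 4th, within the dimmest 40%, gave 0.21 ± 0.16. The rise of the brightest one missed the threshold once the 2nd (adjusted p = 0.0695) or 3rd (0.0742) mutant array, or the 3rd control atrium (0.0525), was dropped, and the 3rd probe set lost its call in 10 of 19 alternatives. The rise of the 2nd one was lost in a single alternative, the hepatocyte covariate (0.42, adjusted p = 0.435). With that covariate the brightest did not pass either (0.53, adjusted p = 0.374).

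Dsp encodes desmoplakin, the plaque protein that anchors desmin filaments. It gave 13.33, 13.40 and 13.50 in mutant atria, 13.43, 13.63 and 13.51 in ventricles, and 13.08, 13.28 and 13.15 in control atria. The mutant arrays were above all control atria and overlapped the ventricles. The ventricle was 1.28-fold above the control atrium (0.35 ± 0.08, adjusted p = 0.00649), as it was with the 2 other probe sets (0.54 ± 0.12 and 0.89 ± 0.13). The mutant ratio of 0.24 ± 0.08 did not pass (adjusted p = 0.0838, 95% interval 0.06 to 0.43). It passed with an intensity trend (adjusted p = 0.0358) and when its probe sets were averaged (0.36, adjusted p = 0.0337). The dimmest Dsp probe set, at 6.70 ± 0.20 in mutant atria, 7.07 ± 0.22 in ventricles and 6.19 ± 0.14 in control atria, rose in mutant atria (0.52 ± 0.13, adjusted p = 0.0295), a call that was lost in 6 of 19 alternatives.

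Jup encodes plakoglobin, an armadillo protein found in desmosomes and adherens junctions alike. Its single probe set gave 8.901, 9.003 and 9.076 in mutant atria, 9.14, 9.42 and 9.41 in ventricles, and 8.67, 8.87 and 8.67 in control atria. The groups did not overlap, with the mutants in the middle. The ventricle was 1.5-fold above the control atrium (0.59 ± 0.10, adjusted p = 0.000882). The mutant atria were below the ventricles by -0.33 ± 0.10 (adjusted p = 0.0289) and differed from the control atria by 0.26 ± 0.10 without passing (adjusted p = 0.11, 95% interval 0.04 to 0.47), except with quantile normalisation (adjusted p = 0.0484). The difference from the ventricles was lost when the 1st (adjusted p = 0.0914) or 2nd (0.0669) mutant array, or the 2nd (0.0929) or 3rd (0.0882) ventricle, was left out.

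Dsp, Pkp2 and Jup thus shared a higher level in the ventricle than in the control atrium, and the promoters of Dsp and Jup are shown because they are the members of that trio in the RefSeq promoter table (build GRCm38.p6, 250 bases before to 50 after each start). The table held 8 promoters of 5 of the 10 genes. The T-box core AGGTGT, searched on both strands, was in 3 of these 8 and in 13.7% of all 32851 promoters. Counted from the start, it began at base -219 and again at base 5 in Dsp, and at base -19 in Jup. The third promoter that held it was one of Ctnna3, at base -146, a gene that no comparison called. Capitals mark the core in these 30-base windows, at chr13:38151063-38151092 on the plus strand and chr11:100397792-100397821 on the minus strand.
Dsp: gaaatcctccaaAGGTGTgccactgtggct
Jup: cgagggggcgagAGGTGTggcttggctgtc
The 250 bases before the Dsp start, chr13:38151044-38151293 on the plus strand, show its GC-rich sequence, with the same core in capitals.
Dsp promoter: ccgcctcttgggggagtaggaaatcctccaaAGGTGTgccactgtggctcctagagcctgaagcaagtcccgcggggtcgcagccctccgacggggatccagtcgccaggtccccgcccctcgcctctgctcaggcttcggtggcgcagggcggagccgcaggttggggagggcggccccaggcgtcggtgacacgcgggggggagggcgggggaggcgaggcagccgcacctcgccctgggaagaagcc
The nuclear receptor half-site AGGTCA was in 1 of the 8, a Ctnna3 promoter, and in 16.3% of all, with no overlap with the T-box core. A direct repeat of that half-site, spaced by 1 base, and the GATA motif AGATAA were in none of the 8 and in 0.0396% and 11.2% of all. These are letter matches in short windows and say nothing of binding.

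In the adherens junction, Cdh2 encodes N-cadherin, the classical cadherin of heart muscle. It gave 12.83, 12.96 and 12.94 in mutant atria, 12.79, 12.90 and 12.90 in ventricles, and 12.48, 12.34 and 12.11 in control atria. The mutant arrays lay with the ventricles and above every control atrium. Cdh2 rose by 0.60 ± 0.10 in mutant atria (1.52-fold, adjusted p = 0.00307), the largest rise among the 10 genes, and the ventricle exceeded the control atrium by 0.55 ± 0.10 (adjusted p = 0.00117). Mutant atria and ventricles differed by 0.05 ± 0.10 (adjusted p = 0.75), with a 95% interval of -0.17 to 0.26.

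The dimmer Cdh2 probe set gave 11.57, 11.70 and 11.67 in mutant atria, 11.58, 11.63 and 11.70 in ventricles, and 10.96, 10.77 and 10.69 in control atria. It showed the same order with a larger ratio, 0.84 ± 0.08 for mutant against control atria (1.79-fold, adjusted p = 0.000193) and 0.83 ± 0.08 for ventricle against control atria. The difference of mutant atria from ventricles was 0.01 ± 0.08, with an interval of -0.17 to 0.19. With the hepatocyte covariate the brightest probe set kept its sign in the mutants but did not pass (1.10, adjusted p = 0.0525).

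The catenins link this cadherin to actin. Ctnnb1 encodes beta-catenin, which binds the cadherin tail and is also the effector of Wnt signalling. It gave 13.20, 13.08 and 13.17 in mutant atria, 13.01, 12.91 and 13.01 in ventricles, and 13.23, 13.27 and 13.24 in control atria. The mutant arrays were just below the control atria and above the ventricles. The mutant ratio was -0.10 ± 0.06 (adjusted p = 0.343, 95% interval -0.24 to 0.04), while the ventricle was below the control atrium by -0.27 ± 0.06 (adjusted p = 0.00665). Between mutant atria and ventricles the ratio was 0.17 ± 0.06 (adjusted p = 0.0699), and it passed with an intensity trend (0.0183), without the dimmest probe sets (0.0437) and with quantile normalisation (0.0301). For ventricle against control atria its next brightest probe set gave -0.21 ± 0.08 (adjusted p = 0.0465), a call lost in 12 of 19 alternatives. Its dimmest gave -0.03 ± 0.08 (adjusted p = 0.752). The brightest did not pass there with the hepatocyte covariate (-0.27, adjusted p = 0.507).

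Ctnna1 encodes alpha-E-catenin, the actin-binding partner of beta-catenin. It gave 13.85, 13.74 and 13.85 in mutant atria, 13.48, 13.61 and 13.64 in ventricles, and 13.83, 13.83 and 13.79 in control atria. Mutant and control atria overlapped, with a 95% interval of the ratio of -0.16 to 0.15 (adjusted p = 0.992), and the ventricles were below both. The ventricle ratio was -0.24 ± 0.07 against control atria (adjusted p = 0.0181), and the mutant ratio 0.24 ± 0.07 against ventricles (adjusted p = 0.029). The Ctnna1 call between chambers was lost with median centring (-0.17, adjusted p = 0.0716), with the Y-linked covariate (0.0526), and on leaving out the 1st ventricle (0.06) or the 2nd control atrium (0.0513). The call against ventricles was lost with median centring (0.0715), with the Y-linked covariate (0.0724), and on leaving out the 1st (0.0837) or 3rd (0.0962) mutant array, or the 1st (0.0895) or 2nd (0.0503) ventricle. It was also lost with the replicate number as a block (adjusted p = 0.0548) and in a fit of only the groups compared (0.0528).

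Ctnna3 encodes alpha-T-catenin, which is largely confined to muscle and binds plakophilin 2 as well as beta-catenin. It gave 8.27, 8.04 and 8.22 in mutant atria, 8.21, 8.29 and 8.11 in ventricles, and 8.68, 8.16 and 8.12 in control atria. The groups overlapped, and control atrium replicate 1 stood above the rest. Ctnna3 was the single gene of the 10 that no comparison called, with ratios of -0.14 ± 0.14 for mutant against control atria (95% interval -0.46 to 0.17), -0.12 ± 0.14 for ventricle against control atria (-0.43 to 0.19) and -0.03 ± 0.14 for mutant atria against ventricles (-0.34 to 0.29). Its other probe set gave 7.35, 7.22 and 7.40 in mutant atria and 7.49, 7.80 and 7.75 in ventricles, a ratio of -0.35 ± 0.12 that did not pass (adjusted p = 0.0527) but did in 9 of 19 alternatives.

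Tjp1 encodes ZO-1, a scaffold of tight junctions that at the disc sits beside gap junctions and binds alpha-catenin. It gave 11.23, 11.25 and 11.23 in mutant atria, 11.14, 11.10 and 11.22 in ventricles, and 11.45, 11.59 and 11.53 in control atria. The control atria were above all other arrays. Tjp1 fell by 0.29 ± 0.06 in mutant atria (1.22-fold, adjusted p = 0.0166), and the ventricle was below the control atrium by -0.37 ± 0.06 (adjusted p = 0.00126). Mutant atria and ventricles differed by 0.08 ± 0.06 (adjusted p = 0.381, 95% interval -0.06 to 0.23). The fall in mutants was lost when the 2nd (adjusted p = 0.0516) or 3rd (0.0565) mutant array, or the 2nd control atrium (0.064), was left out. It did not pass with the hepatocyte covariate either (-0.36, adjusted p = 0.536). Endothelial and epithelial cells also make ZO-1. Of 11 endothelial markers 1 fell in mutant atria, the angiopoietin receptor gene Tek (-0.61 ± 0.13), a share near the 8.99% of all genes called lower. In the ventricle 6 were lower and 1 higher, against 23.1% and 28.2% of all genes. The summed intensity of the endothelial markers was 15717 to 19413 in mutant atria, 8740 to 9794 in ventricles and 19078 to 20937 in control atria. Their part in the Tjp1 values was not tested.

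**Figure D2:**
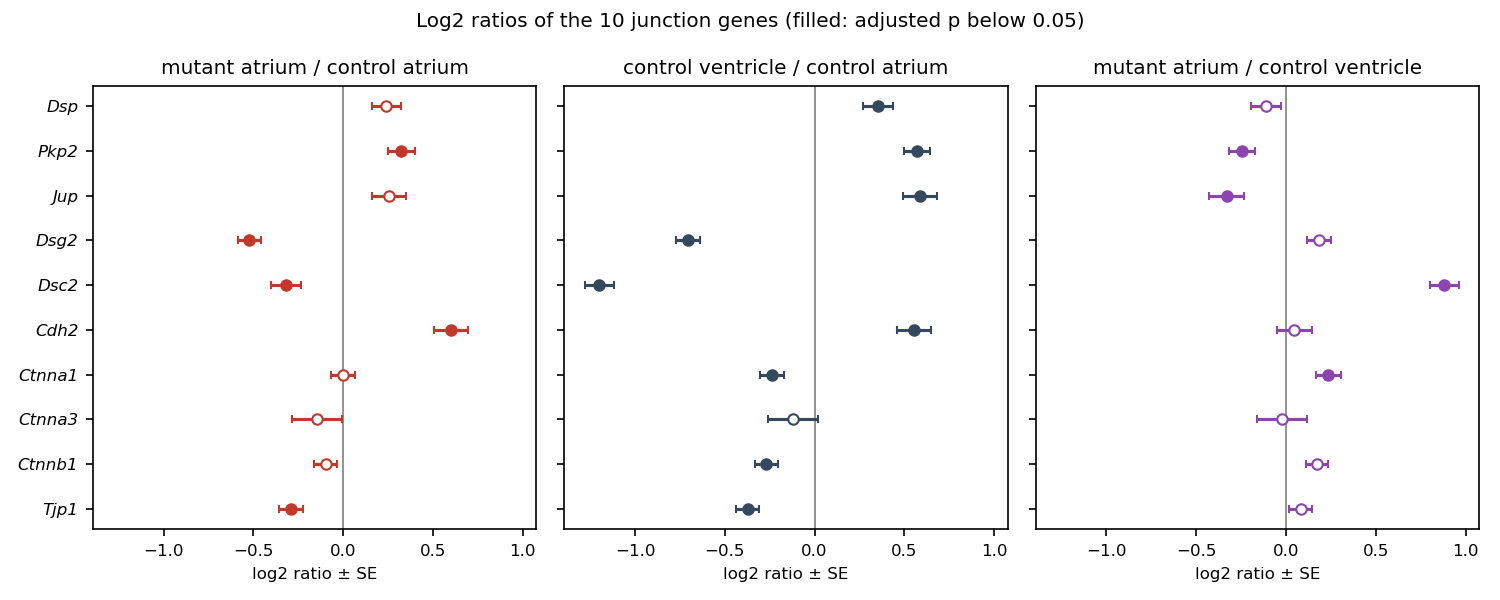
Log2 ratio ± SE of the 10 genes in the 3 comparisons, with filled points at an adjusted p below 0.05. Mutant atria differ from control atria most in Cdh2 (0.60) and Dsg2 (-0.52), ventricles from control atria most in Dsc2 (-1.20), and mutant atria from ventricles most in Dsc2 (0.88).

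Control ventricles were set against control atria to show how junction transcripts differ between chambers in which the floxed gene is intact. The ventricle had more of the plaque genes Dsp, Pkp2 and Jup and of Cdh2, and less of Dsg2, Dsc2, Ctnna1, Ctnnb1 and Tjp1. That made 9 of 10 genes, 4 higher and 5 lower, against 51.3% of all genes (28.2% higher and 23.1% lower). Their arrays did not overlap for 9 of the 10 genes, against 59.7% of all genes, and for 20 of the 28 probe sets, against 55.6% of all. Of the 28 probe sets 21 were called, 9 higher and 12 lower, against 47.2% of all (25.7% higher and 21.5% lower). With the hepatocyte covariate 5 of 28 passed, 2 of Cdh2, 2 of Dsc2 and 1 of Pkp2, against 4.07% of all probe sets. All ventricle arrays had low Y-linked levels, and with these as a covariate 18 of 28 passed, against 35.6% of all probe sets. The chamber comparison and the mutant comparison share the control atria, so a like sign in both is no separate evidence.

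Mutant atria were also set directly against control ventricles. Here 4 of 10 genes were called, Dsc2 and Ctnna1 higher and Pkp2 and Jup lower in mutant atria, against 31% of all genes (15.4% higher and 15.6% lower). Of the 28 probe sets 6 were higher and 3 lower, against 27.5% of all (13.4% higher and 14.1% lower). The arrays did not overlap for 7 of the 10 genes, against 47.4% of all genes, and for 15 of the 28 probe sets, against 43.3% of all. The count of genes was 1 without mutant replicate 1 or without ventricle replicate 2, and 2 without mutant replicate 2, ventricle replicate 1 or ventricle replicate 3. Shares over all genes in those fits are not given here. The Dsc2 call held in each of the 21 alternatives. For the brightest probe sets of Cdh2, Dsp, Ctnna3 and Tjp1 the difference from the ventricles did not pass in any of them.

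**Figure D3:**
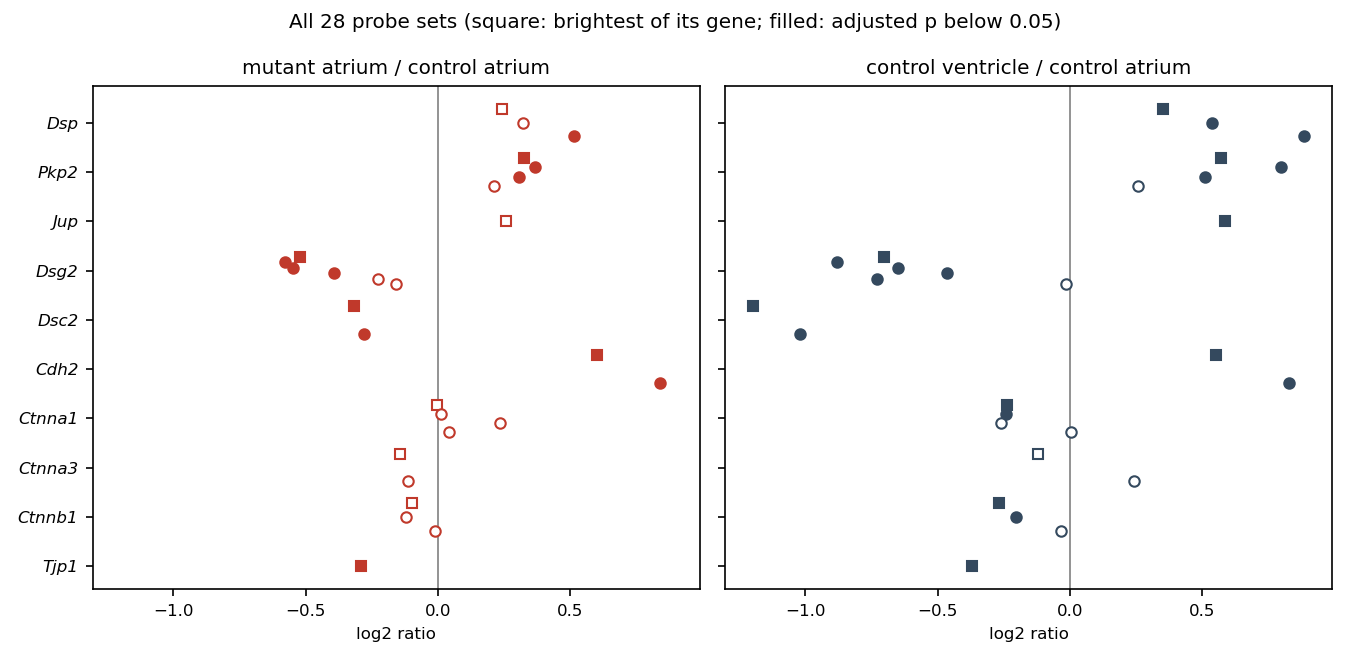
Log2 ratios of all 28 probe sets by gene, for mutant against control atria (left) and ventricle against control atria (right), with the brightest as a square and filled symbols at an adjusted p below 0.05. All 4 called probe sets of Dsg2 lie below 0 on the left, as do both of Dsc2, while both of Cdh2 and the 3 called ones of Pkp2 lie above it.

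The probe sets of a gene agreed in sign wherever more than 1 of them was called, in all 3 comparisons. A filter on low values would have passed 26 of the 28, since 1 of Pkp2 and 1 of Ctnna1 lay in the dimmest 40% of all probe sets, and neither was called in any comparison. By Affymetrix's naming, the brightest probe sets of Dsp, Pkp2 and Jup (ending in _s_at) and of Ctnna1 (_x_at) can bind more than 1 transcript. For Dsp, Pkp2 and Ctnna1 a probe set without that ending gave a ratio of the same sign in the ventricle comparison.

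Other junction genes were taken from lists. Of 11 measured further desmosomal genes 2 fell in mutant atria (median 0.06, against 0.03 over all genes), a share near the 15.9% called over all genes. Ppl, which encodes the plaque protein periplakin of epithelia, had 8.07 ± 0.16 in mutant atria, 6.72 ± 0.12 in ventricles and 8.76 ± 0.12 in control atria, a fall of 0.68 ± 0.10 (adjusted p = 0.0021). Pkp4, an armadillo protein of the plakophilin family, fell by 0.37 ± 0.07 (adjusted p = 0.0107). In the ventricle 4 of the 11 were higher and 2 lower than in control atria, against 51.3% of all genes called, with Ppl at -2.04 ± 0.10 and Pkp4 at -0.64 ± 0.07. Of the 11 genes 7 lay in the dimmest 40% of probe sets. Among these were Dsc1, Dsc3 and Pkp1, called higher in the ventricle by 0.21, 0.31 and 0.29. Desmin, the filament gene Des that desmosomes anchor, was higher there by 0.44 ± 0.11 (adjusted p = 0.0101) and stood at 11.80 ± 0.24 in mutant atria, 12.16 ± 0.07 in ventricles and 11.72 ± 0.08 in control atria.

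Of 22 further genes listed with the adherens junction 2 rose and 3 fell in mutant atria (median -0.02), against 15.9% of all genes called. Nectin2, a nectin adhesion receptor, rose by 0.61 ± 0.09 (adjusted p = 0.00213), and Vcl, the actin linker vinculin, by 0.29 ± 0.07 (adjusted p = 0.0254). The Vcl call was lost on leaving out the 2nd (adjusted p = 0.0666) or 3rd (0.09) mutant array, or the 1st (0.0849) or 3rd (0.0529) control atrium, and when its probe sets were averaged (0.457). Ctnnbl1, a nuclear protein that shares only repeat structure with beta-catenin, fell by 0.54 ± 0.07 (adjusted p = 0.00103); it is no junction protein, though the list and its counts include it. Cdh1, the cadherin of epithelia, stayed near background at 3.70 ± 0.05 in mutant atria and 4.08 ± 0.14 in control atria and passed as a fall (-0.39 ± 0.08, adjusted p = 0.0122). In the ventricle 5 of the 22 were higher and 10 lower, against 51.3% of all genes called, led by Cdh11, a cadherin of mesenchymal cells, at -2.89 ± 0.15. Actn1, the actin crosslinker alpha-actinin-1, was lower there by -0.68 ± 0.08, and its mutant ratio of -0.27 ± 0.08 did not pass (adjusted p = 0.0529). In mutant atria Cdh11 had 10.41 ± 0.30, against 10.67 ± 0.10 in control atria, and did not pass (adjusted p = 0.274) except without mutant replicate 1 (-0.43, adjusted p = 0.0418).

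Of 24 further partners at the intercalated disc 2 rose and 2 fell in mutant atria (median 0.03), a share near the 15.9% called over all genes. Popdc2, a membrane protein of heart muscle that binds cyclic AMP, rose by 0.98 ± 0.07 (adjusted p = 3.84e-05), to 12.14 ± 0.07 against 11.15 ± 0.03 in control atria. Ank2, which encodes ankyrin-B, rose by 0.62 ± 0.11 (adjusted p = 0.00581). Pdzd2, a PDZ scaffold protein, fell by 0.64 ± 0.08 (adjusted p = 0.000954), and Mtss1, an actin regulator, by 0.71 ± 0.18 (adjusted p = 0.0271). The Mtss1 call was lost on leaving out the 2nd (adjusted p = 0.0931) or 3rd (0.0902) mutant array, or the 1st (0.0993) or 2nd (0.0565) control atrium. In the ventricle 10 of the 24 were higher and 7 lower, against 51.3% of all genes called. Popdc2 was higher by 0.77 ± 0.07, Popdc3 by 0.73 ± 0.12 and the disc protein gene Tmem65 by 0.53 ± 0.08, while Pdzd2 was lower by -1.16 ± 0.08.

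Since beta-catenin also acts in the nucleus, target and partner genes of Wnt signalling were counted. Of 17 measured, 3 fell in mutant atria (median 0.01), a share near the 15.9% called over all genes. Axin2, the feedback inhibitor that is the most used readout of beta-catenin activity, fell by 0.97 ± 0.09 (adjusted p = 0.000118), to 7.28 ± 0.11 against 8.25 ± 0.11 in control atria. When its probe sets were averaged the Axin2 ratio was -0.52 in mutants and -0.51 in ventricles, and with the hepatocyte covariate the fall did not pass (-1.18, adjusted p = 0.0847). Bambi, a pseudoreceptor of TGF-beta signals, fell by 0.72 ± 0.08 (adjusted p = 0.000326) and Tcf7l2, a DNA-binding partner of beta-catenin, by 0.52 ± 0.09 (adjusted p = 0.00464), a call that was lost when its probe sets were averaged (-0.11, adjusted p = 0.248). In the ventricle 3 of the 17 were higher and 5 lower, near the 51.3% called over all genes, with Axin2 at -1.25 ± 0.09 and the Wnt inhibitor gene Apcdd1 at -1.61 ± 0.13. Of the 17 genes 8 lay in the dimmest 40% of probe sets.

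**Figure D4:**
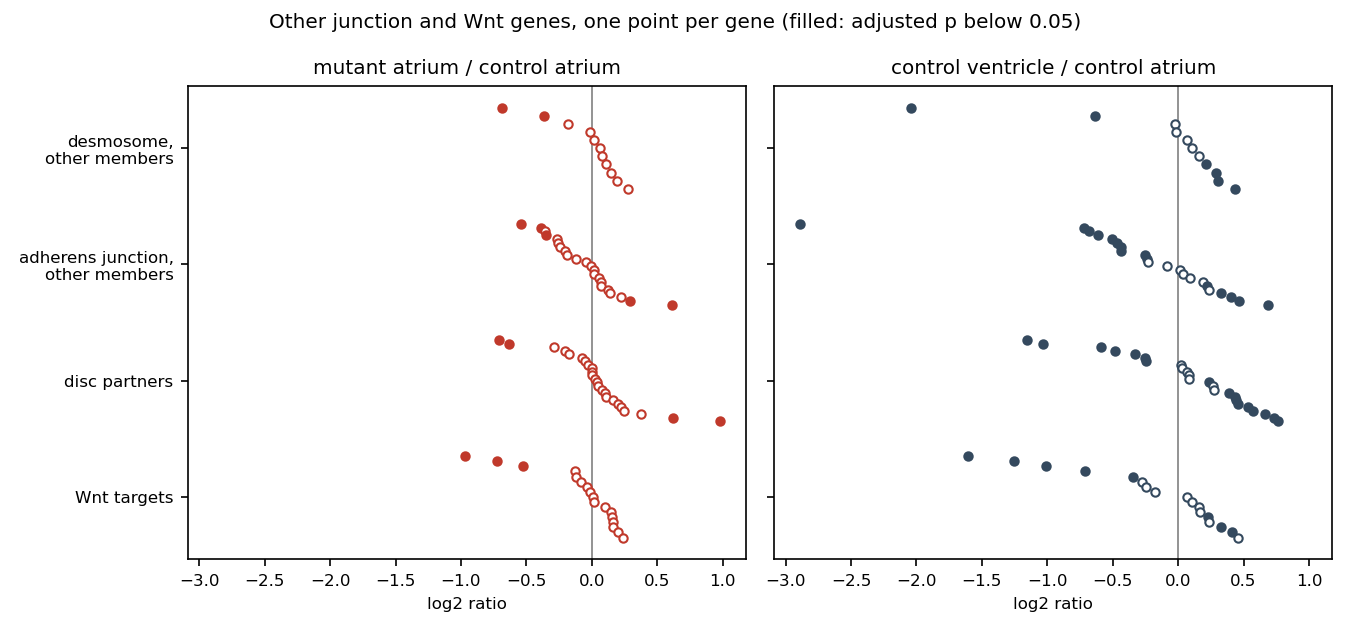
Log2 ratios of further desmosomal, adherens junction, intercalated disc and Wnt genes, 1 point per gene sorted within its list, for mutant against control atria (left) and ventricle against control atria (right), with filled points at an adjusted p below 0.05. On the left 2 of 11, 5 of 22, 4 of 24 and 3 of 17 genes are filled, and on the right 6, 15, 17 and 8. In the same order, 7, 3, 1 and 8 of the genes lie in the dimmest 40% of all probe sets.

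The genes whose pattern over the 9 arrays was nearest to the 2 members with the largest mutant ratios were looked up among 18192 others, by the root mean square of the log2 distance after each gene's own mean was removed. Nearest to Cdh2 were Ogfrl1 (0.0934), Pln (0.0957) and Rcor3 (0.1). Pln, which encodes phospholamban, the inhibitor of the calcium pump, had 14.52 ± 0.04 in mutant atria, 14.56 ± 0.01 in ventricles and 13.93 ± 0.03 in control atria. Nearest to Dsg2 were Selenos (0.0411), Oxr1 (0.0548) and Fbxw8 (0.0612). Among so many genes some will lie close to any pattern, so the values are a description.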

How the data were processed

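RNA of 9 mouse heart samples, 3 per group, was hybridised to Affymetrix arrays after 3' IVT labelling. The deposited table holds an intensity for each probe set, on a linear scale, made by the authors with RMA per the submitters' processing notes. The version of RMA and a genome build are not given in the sources used here. Their log2 was taken with no further normalisation. Of 45101 probe sets, 64 controls, 932 with several gene names and 9160 without a name were left out. Gene names come from the platform annotation of GEO.

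A model with a mean per group was fitted to all 9 arrays with limma 3.58.1 in R 4.3.3 (lmFit, eBayes), tested 2-sided with Benjamini-Hochberg adjustment over 34945 probe sets, with 6 residual and 3.83 prior degrees of freedom. It was tested on simulated data. Intervals are 95%. Figures used matplotlib 3.10.9 and pandas 2.3.3. The members, lists, tests and alternatives were chosen with earlier results of these data known. Genes outside the 10 were drawn from the 4 smallest p of their list in the mutant or the chamber comparison, not all of which are named, with 3 nearest patterns for each of 2 members and Nr2f2. Dsc3, Ttr and the cluster genes beside Dsg2 were picked after their values were seen. Pkp1, at rank 7 by p in the mutant and rank 5 in the chamber comparison, was named outside that rule. Same-numbered samples of different groups did not deviate together (correlations from -0.0957 to 0.111), so numbers were not taken as pairs.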

Additional observations from a re-analysis of the deposited data

How the results depend on the processing

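Over the 9 fits that left out an array, the called probe sets of the 28 ranged from 8 to 13 for mutant against control atria, 18 to 21 for ventricle against control atria and 4 to 10 for mutant atria against ventricles. The called genes of the 10 ranged from 2 to 5, 8 to 9 and 1 to 4. With 1 probe set per gene 5, 9 and 5 genes of 10 were called, and with the mean of all probe sets 6, 9 and 4. At an adjusted p of 0.01, 6 probe sets and 2 genes remained for mutant against control atria, and 3 and 1 for mutant atria against ventricles. The share called over all features in the fits named so far is not given here. A loss of calls there therefore cannot be set against that of the whole array. The replicate block gave 10, 21 and 9 probe sets and 4, 9 and 2 genes, with 12.1%, 45.1% and 25.6% of all probe sets called. Without the block these shares were 13.9%, 47.2% and 27.5%. The Y-linked covariate gave 2 genes for mutant atria against ventricles, with 19.8% of all probe sets called. With the hepatocyte covariate limma called 1 probe set and 0 genes for mutant against control atria, with 5 and 3 at an unadjusted p below 0.05, and 5 probe sets and 2 genes for ventricle against control atria. Over all probe sets it called 0.292% and 4.07%. In that fit 22 and 21 of the 28 ratios kept their sign. For ventricle against control atria, 3 ratios called in the main fit changed sign there and did not pass. These were a Dsg2 probe set near the middle of all probe sets (0.56, adjusted p = 0.682), Dsc3 (-0.011, adjusted p = 0.99) and Cdh1 (0.046, adjusted p = 0.958). With the mean of all probe sets the called ratios of Axin2 (-0.0105, adjusted p = 0.926) and Fbxw8 (-0.025, adjusted p = 0.769) for mutant atria against ventricles changed sign and did not pass. The cause was not tested. The 3 arrays per group limit the precision.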
